A study of Homo sapiens with 15 samples.

Results

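The MDM2-p53 circuit was examined through 9 genes: the inhibitors MDM2, MDM4 and PPM1D, and the stress targets SESN1, SESN2, GDF15, BBC3, BTG2 and TP53INP1. They were chosen by symbol as parts of this circuit, with earlier results of these data known, and all 9 were found among the 17272 genes of the deposited table. All 9 also passed the filter on low values. The cells were LNCaP, an established line of human prostate cancer that responds to androgen. Enzalutamide blocks the androgen receptor, and R1881 is a synthetic ligand that activates it. After 2 days without androgen all cultures received 1 nM R1881. The vehicle DMSO was given in 10 libraries (R1881 + DMSO) and 2 µM enzalutamide in 5 libraries (R1881 + enzalutamide), and cells were collected after 22 h. Every library came from the same cell line and time point, and there was no group without R1881.

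The p53 protein is a transcription factor that is kept low in unstressed cells and accumulates after DNA damage and other stress. MDM2 is the ubiquitin ligase that marks p53 for degradation, and MDM2 is itself a p53 target, which closes a negative feedback loop. MDM4 is a related protein that binds p53 and blocks its activity, and PPM1D, also called WIP1, is a phosphatase that removes stress-induced phosphates from p53 and from the kinases that activate it. The targets examined act in different ways. The sestrins SESN1 and SESN2 restrain mTORC1 signalling, GDF15 is a secreted stress cytokine, BBC3 encodes the BH3-only protein PUMA that triggers apoptosis, BTG2 is an antiproliferative protein, and TP53INP1 is a cofactor of p53 in stress responses that also acts in autophagy. LNCaP cells are known to carry wild-type p53.

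Promoter windows of 250 bases before RefSeq transcript starts were found for 8 of the 9 genes, 13 windows in all (GRCh38.p14). Matches to the p53 consensus site were searched as a direct pair of 10-letter half-sites, with the fixed C and G of each half-site required and at most 3 other mismatches in 20 letters. Since the consensus reads the same on both strands, the search covers both. Such a match was held by 3 of the 13 windows, all of MDM2 or SESN1, and by 0.914% of the 35116 windows of all genes. These windows belong to 2 genes with a single distinct site in each, because overlapping windows share a site. The stretches around these matches are shown because MDM2 and SESN1 are the inhibitor and the target with a match, and the capitals mark the matched letters. In MDM2 the match had 2 mismatches and lay from 94 to 75 bases before an internal start, in the intron between annotated exons (plus strand). In SESN1 it had 3 mismatches and lay from 49 to 30 bases before the most downstream start, within an intron of the longer transcripts (minus strand). For PPM1D the stretch shows the cyclic AMP response element TGACGTCA, searched on both strands, which 1 of the 13 windows and 1.65% of all windows held.
MDM2, chr12:68808873-68808992: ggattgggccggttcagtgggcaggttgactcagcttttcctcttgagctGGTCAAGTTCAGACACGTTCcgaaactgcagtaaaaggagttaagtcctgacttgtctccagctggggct
SESN1, chr6:109008989-109009087: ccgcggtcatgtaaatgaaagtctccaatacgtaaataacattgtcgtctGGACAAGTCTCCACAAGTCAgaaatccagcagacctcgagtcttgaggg
PPM1D, chr17:60600082-60600189: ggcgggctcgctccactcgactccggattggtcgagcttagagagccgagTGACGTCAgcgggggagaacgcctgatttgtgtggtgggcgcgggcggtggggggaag

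The androgen receptor half-site AGAACA was found on neither strand of the 13 windows, against 12.4% of all windows, and the amino acid response element core TGATGCAA on neither strand of them, against 0.772%. These counts describe the letters of short windows only, and binding of p53, the androgen receptor or any other factor was not measured.

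Values are deposited CPM, read counts scaled by library, with 15830745 to 25416052 reads recovered per library. The deposited values of a library summed to 1053406 to 1078567 with R1881 + DMSO and to 985580 to 1008992 with R1881 + enzalutamide, without overlap. How the scaling was done is not given, and the fold changes depend on it. Differences between treatments were tested with limma on log2(CPM + 0.5) over the 17046 genes whose mean CPM reached 0.5, and p-values were adjusted over all of these by the Benjamini-Hochberg method (threshold 0.05). Fold changes are on this log2(CPM + 0.5) scale, which understates the change of genes with few reads. The androgen target KLK3 ranged from 1345 to 1868 CPM with R1881 + DMSO and from 124 to 145 CPM with R1881 + enzalutamide. All 8 luminal prostate markers examined were expressed in every library. Of 7 markers of other cell types 4 had values, while PTPRC, PECAM1 and KRT5 were not found in the deposited table, whose gene filter is not given. The collagen genes COL1A1 and COL3A1 rose, and ACTA2 did not pass the test. KRT14 of basal cells fell and was as low as 0 CPM with R1881 + enzalutamide. The summed level of these 4 markers was 10.4 to 15.6 CPM with R1881 + DMSO and 23.6 to 29.4 CPM with R1881 + enzalutamide, and their part in the results was not tested. Label numbers run from 51 to 55 and from 71 to 75 with R1881 + DMSO and from 81 to 85 with R1881 + enzalutamide, so the treatment cannot be told apart from the last series of numbers. In R1881 + DMSO replicates 5 and 6 and R1881 + enzalutamide replicate 2 the deviations of genes from their treatment mean rose with GC content (Spearman's rho 0.56, 0.73 and 0.71 across genes, which are not independent replicates). They fell with GC content in R1881 + DMSO replicates 7, 9 and 10 (rho -0.56, -0.54 and -0.62) and in R1881 + enzalutamide replicates 1 and 4 (rho -0.48 and -0.49). Results are also given with the GC trend removed from all libraries, or without the 3 libraries in which deviations rose with GC content.

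With enzalutamide 7 of the 9 genes rose, 1 fell and 1 did not pass the test. TP53INP1, SESN1 and BTG2 rose most, by 2.62-fold, 2.52-fold and 2.41-fold, GDF15, BBC3, SESN2 and MDM2 rose by 1.86-fold to 1.30-fold, and PPM1D fell 2.23-fold. MDM4 was 1.04-fold of its level with R1881 + DMSO. Over all genes tested 29.8% rose and 32.7% fell, so that 62.5% were called in either direction. The median log2 fold change was 0.70 over the 9 genes and -0.01 over all genes tested. The libraries of the treatments did not overlap for 6 of the 9 genes, 5 of them higher and 1 lower with enzalutamide, against 37.2% of all genes tested (17.1% higher and 20.1% lower). A rise of at least 2-fold was found for 3 genes of the 9 and for 3.26% of all genes, and a fall of at least 2-fold for 1 gene of the 9 and for 4.19% of all genes. In RNA of whole cultures a change in the share of some cells and a change in the RNA of each cell cannot be told apart.

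**Figure D1:**
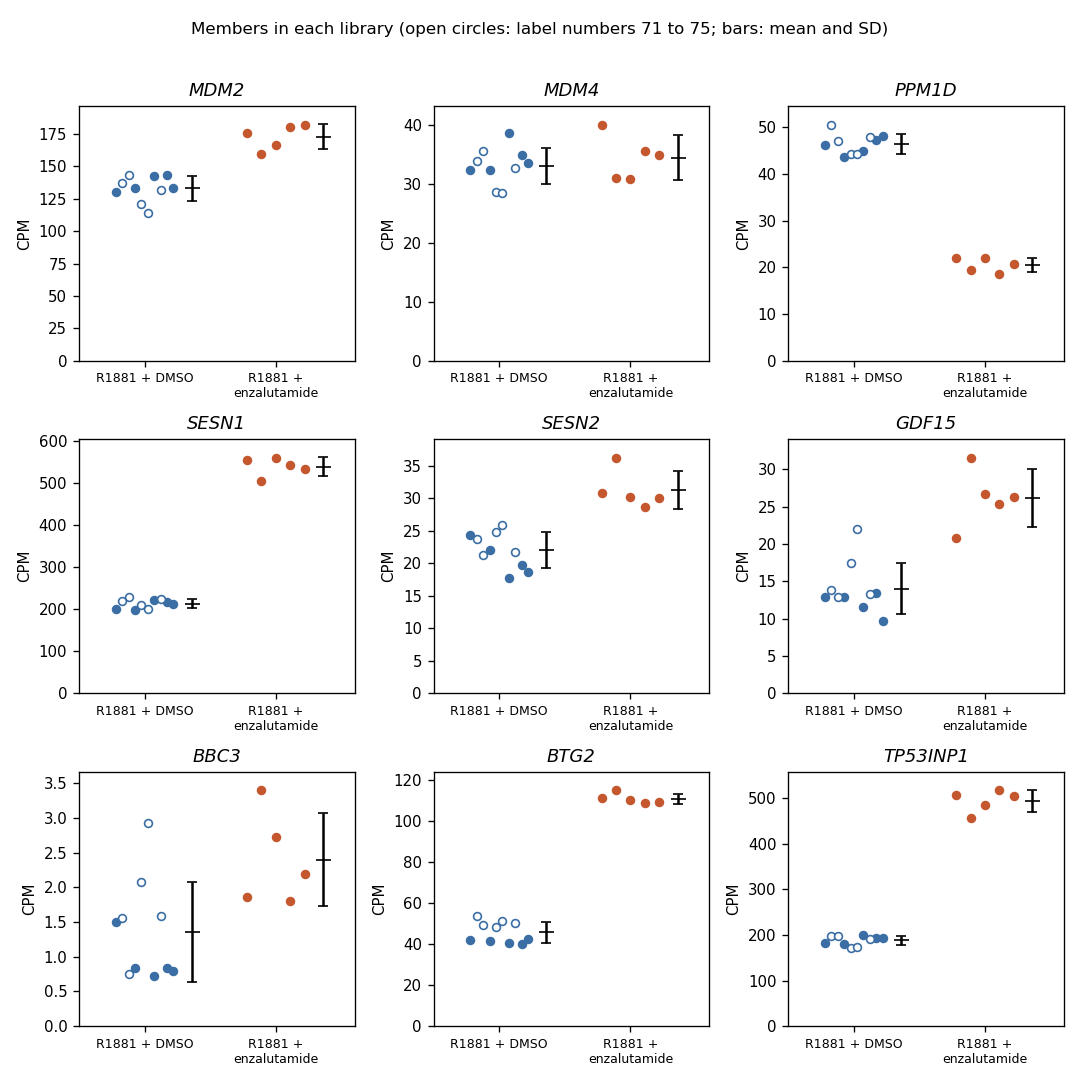
CPM (y axes, from 0) of the 9 genes in each of 10 R1881 + DMSO libraries (blue, open circles for label numbers 71 to 75) and 5 R1881 + enzalutamide libraries (orange), with mean and SD as bars. The points of SESN1, BTG2, TP53INP1 and PPM1D fall into separate ranges by treatment, those of MDM4 share a range, and those of GDF15 and BBC3 overlap.

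MDM2 lies on the plus strand of chromosome 12 from 68808177 to 68845544 of GRCh38 (11 exons in its canonical transcript in GENCODE v44). It ranged from 114 to 143 CPM with R1881 + DMSO, with a median of 133 CPM. In the 5 R1881 + enzalutamide libraries it was 176, 159, 167, 181 and 182 CPM. All 5 lay above the highest R1881 + DMSO library. The log2 fold change was 0.38 (SE 0.050, limma adjusted p = 1.30e-06), the smallest change among the genes of the 9 that passed the test. It was 0.34 against the R1881 + DMSO libraries 51 to 55 alone and 0.42 against 71 to 75 alone. At its distal end the gene overlaps the carboxypeptidase M gene on the opposite strand, and the sources used here do not say whether reads were counted by strand.

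MDM4 lies on the plus strand of chromosome 1 from 204516379 to 204558120 (11 exons). Between 28.5 and 38.6 CPM were measured with R1881 + DMSO (median 33.1 CPM). With R1881 + enzalutamide the libraries held 40.1, 31.0, 30.8, 35.6 and 35.0 CPM. Of these, 1 lay above the R1881 + DMSO range and 4 within it. The log2 fold change of 0.06 did not pass the test (SE 0.069, limma adjusted p = 0.495). Its 95% interval from -0.09 to 0.20 corresponds to 0.941-fold to 1.15-fold.

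Both inhibitors were also compared within each library, where the scaling of the library cancels apart from the pseudocount. The log2 ratio of MDM2 to MDM4 was 1.99 ± 0.049 (SD, n = 10) with R1881 + DMSO and rose to 2.31 ± 0.113 (SD, n = 5) with R1881 + enzalutamide. In linear terms MDM2 had 3.98 times the CPM of MDM4 with R1881 + DMSO and 4.97 times with R1881 + enzalutamide, ratios of reads that are not corrected for transcript length. The lowest ratio with R1881 + enzalutamide was 2.12, in replicate 1, and the highest with R1881 + DMSO was 2.06. The difference of 0.32 was larger than the spread among libraries (exact permutation test, two-sided, over 3003 regroupings, p = 0.000333, the smallest the design allows, and 0.000333 after adjustment over 2 ratios).

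PPM1D lies on the plus strand of chromosome 17 from 60600193 to 60666280 (6 exons), and it was the inhibitor that fell. It ranged from 43.7 to 50.5 CPM with R1881 + DMSO, with a median of 46.6 CPM. The R1881 + enzalutamide libraries held 22.0, 19.5, 22.0, 18.5 and 20.7 CPM. Every one of them lay below every R1881 + DMSO library, and the median CPM decreased by 55.6%. On the log2 scale the change was -1.16 (SE 0.048, limma adjusted p = 9.66e-15). Its mean was 46.1 CPM in R1881 + DMSO libraries 51 to 55 and 46.8 CPM in libraries 71 to 75, which did not pass the test between these series (limma adjusted p = 0.814).

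Of the other genes in the phosphatase family of PPM1D, only PPM1A, PPM1B, PPM1F, PPM1G and PPM1K were examined. All of these fell, as did 32.7% of all genes tested, with log2 fold changes between -0.65 for PPM1K and -0.35 for PPM1A. These are smaller decreases than the -1.16 of PPM1D, but the difference between the family members was not tested. Of the 3 inhibitors of p53 examined here, PPM1D fell, MDM2 rose and MDM4 did not pass the test.

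SESN1 spans bases 108984309 to 109094846 of chromosome 6 on the minus strand, with 10 exons. With R1881 + DMSO it ranged from 198 to 230 CPM, with a median of 215 CPM. With R1881 + enzalutamide it reached 556, 505, 561, 543 and 533 CPM. Each of these was more than 2-fold above the highest R1881 + DMSO library. This was a log2 fold change of 1.34 (SE 0.039, limma adjusted p = 2.26e-17), with 1.36 against libraries 51 to 55 alone and 1.31 against libraries 71 to 75 alone.

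SESN2, on the plus strand of chromosome 1 from 28259518 to 28282491 (10 exons), was at a lower level and rose less. It ranged from 17.7 to 25.9 CPM with R1881 + DMSO (median 22.0 CPM). The R1881 + enzalutamide libraries held 30.9, 36.3, 30.2, 28.7 and 30.1 CPM. The treatments did not overlap, but replicate 2, in which deviations rose with GC content, stood above the other 4. The change on the log2 scale was 0.50 (SE 0.081, limma adjusted p = 1.74e-05), and 0.58 with the GC trend removed.

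The sestrins differed in response. The log2 ratio of SESN1 to SESN2 was 3.26 ± 0.224 (SD, n = 10) with R1881 + DMSO and rose to 4.09 ± 0.179 (SD, n = 5) with R1881 + enzalutamide. Its lowest value with R1881 + enzalutamide was 3.78, in replicate 2, above the highest with R1881 + DMSO, 3.61. The difference was 0.84 (two-sided exact permutation test over 3003 regroupings, p = 0.000333, and 0.000333 after adjustment over 2 ratios). A GC trend does not cancel in this ratio, since SESN1 has 40.6% and SESN2 59.6% GC. With R1881 + DMSO the ratio was lowest at 2.93 in replicate 6 and highest at 3.61 in replicate 7. Deviations rose with GC content in replicate 6 and fell in replicate 7. The ratio was not tested with the GC trend removed, where log2 fold changes were 1.38 for SESN1 and 0.58 for SESN2. SESN3, the sestrin outside the group of 9, ranged from 194 to 241 CPM with R1881 + DMSO and from 458 to 525 CPM with R1881 + enzalutamide. Its log2 fold change was 1.17 (SE 0.048, limma adjusted p = 9.42e-15), so that all 3 sestrins rose.

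**Figure D2:**
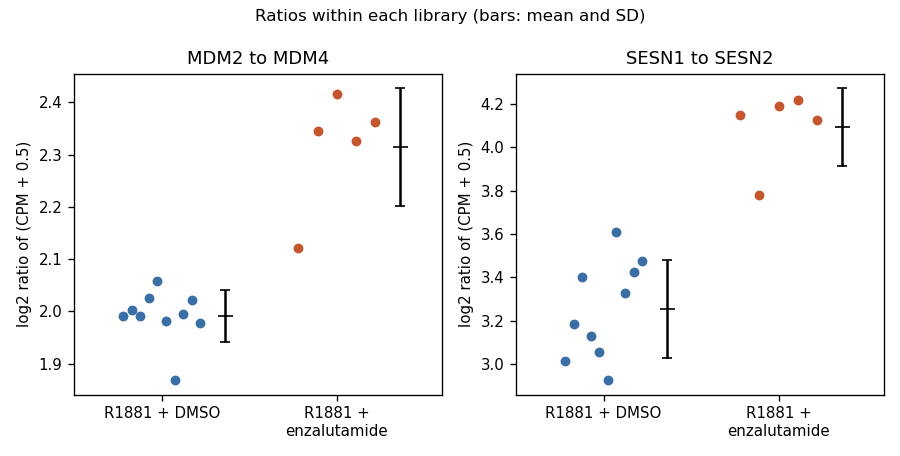
Log2 ratio of (CPM + 0.5) of MDM2 to MDM4 (left) and of SESN1 to SESN2 (right) in each of 10 R1881 + DMSO (blue) and 5 R1881 + enzalutamide libraries (orange), with mean and SD as bars. Both ratios were higher with enzalutamide, by 0.32 and 0.84, and in neither do the treatments overlap.

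BTG2 lies on the plus strand of chromosome 1 from 203305491 to 203309602 (2 exons). It ranged from 39.8 to 53.6 CPM with R1881 + DMSO, with a median of 45.2 CPM. With R1881 + enzalutamide it was 111, 115, 110.3, 109 and 109 CPM, all above 2 times the highest R1881 + DMSO library. BTG2 thus had a log2 fold change of 1.27 (SE 0.065, limma adjusted p = 4.33e-13). BTG2 was also the 1 gene of the 9 that differed between the R1881 + DMSO series, against 3.17% of all genes tested. Libraries 71 to 75 held 48.1 to 53.6 CPM and libraries 51 to 55 held 39.8 to 42.3 CPM, a log2 difference of 0.29 (SE 0.043, limma adjusted p = 0.00604). Against libraries 51 to 55 the log2 fold change with enzalutamide was therefore 1.42, and against libraries 71 to 75 it was 1.13.

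The closest relative of BTG2, the antiproliferative gene BTG1, went the other way. BTG1 ranged from 171 to 218 CPM with R1881 + DMSO and from 56.1 to 65.0 CPM with R1881 + enzalutamide, a log2 fold change of -1.65 (SE 0.057, limma adjusted p = 5.20e-16). TOB1, of the same family, fell by 0.13 on the log2 scale, while TOB2 and BTG3 had log2 fold changes of -0.09 and 0.16 and did not pass the test. Within this family BTG2 was the only gene of the 5 measured that rose.

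TP53INP1 spans bases 94925972 to 94949378 of chromosome 8 on the minus strand, with 4 exons. It ranged from 171 to 200 CPM with R1881 + DMSO, with a median of 192 CPM. The R1881 + enzalutamide libraries held 507, 456, 484, 517 and 505 CPM, each more than 2 times the highest R1881 + DMSO library. The log2 fold change of 1.39 was the largest of the 9 (SE 0.042, limma adjusted p = 4.18e-17). The gene lies inside NDUFAF6 on the opposite strand, which was singled out after its values had been seen. NDUFAF6 ranged from 16.7 to 21.7 CPM with R1881 + DMSO and from 21.2 to 26.0 CPM with R1881 + enzalutamide, a log2 fold change of 0.36. Its relative TP53INP2, a gene of autophagy, fell by 0.54 on the log2 scale (SE 0.044, limma adjusted p = 9.79e-10).

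GDF15 lies on the plus strand of chromosome 19 from 18374731 to 18389176 (2 exons). With R1881 + DMSO it ranged from 9.65 to 22.1 CPM, with a median of 13.1 CPM. The R1881 + enzalutamide libraries held 20.8, 31.5, 26.7, 25.3 and 26.3 CPM. The ranges overlapped through a single pair of libraries, since R1881 + DMSO replicate 6 at 22.1 CPM lay above R1881 + enzalutamide replicate 1 at 20.8 CPM. Its log2 fold change was 0.90 (SE 0.132, limma adjusted p = 5.29e-06). It was 0.95 without the 3 libraries in which deviations rose with GC content.

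BBC3 spans bases 47220822 to 47232766 of chromosome 19 on the minus strand, with 4 exons, and had few reads, between 12 and 73 per library. It ranged from 0.719 to 2.93 CPM with R1881 + DMSO, with a median of 1.17 CPM. The R1881 + enzalutamide libraries held 1.86, 3.40, 2.73, 1.80 and 2.20 CPM. The treatments overlapped, and 1 of the 5 R1881 + enzalutamide libraries lay above the R1881 + DMSO range. The log2 fold change of 0.70 had the widest 95% interval of the 9, from 0.24 to 1.15 (SE 0.217, limma adjusted p = 0.00849). Against R1881 + DMSO libraries 71 to 75 alone it was 0.39 and did not pass the test (limma adjusted p = 0.150), and against libraries 51 to 55 alone it was 1.00 (limma adjusted p = 2.69e-05).

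**Figure D3:**
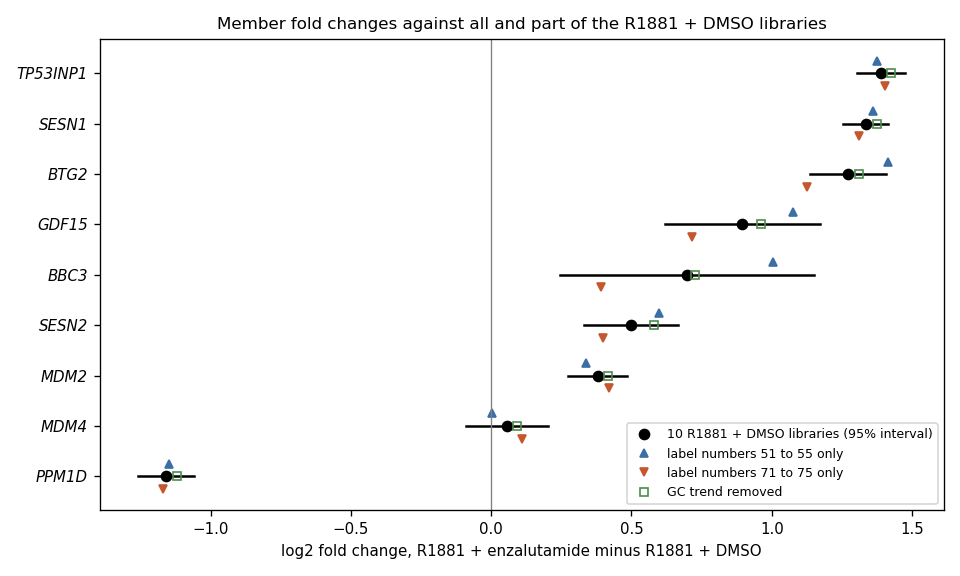
Log2 fold change with enzalutamide (x axis) of the 9 genes against all 10 R1881 + DMSO libraries (black, with 95% interval), against label numbers 51 to 55 or 71 to 75 alone, and with the GC trend removed. The values for PPM1D, SESN1, MDM2 and TP53INP1 lie close together, while those of BBC3, GDF15 and BTG2 depend more on the series compared.

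The genes differed in how much they varied among libraries of a single treatment. Over the 10 R1881 + DMSO libraries the SD of log2(CPM + 0.5) was 0.066 for PPM1D, 0.075 for SESN1 and 0.082 for TP53INP1, but 0.311 for GDF15 and 0.517 for BBC3. In these libraries BBC3 had 12 to 65 reads and GDF15 193 to 490, against 704 to 1084 for PPM1D. The part of read number in these spreads was not tested. The transcripts of SESN2, GDF15 and BBC3 have the highest GC content of the 9, at 59.6%, 64.1% and 69.7%, where the median of all tested genes was 47.45%. R1881 + DMSO replicates 6 and 5 held the highest and next highest values of all 3 of these genes in their group, and R1881 + enzalutamide replicate 2 the highest in its group. In the same replicates 5 and 6 MDM2, TP53INP1 and MDM4, with 39.5%, 39.35% and 42.3% GC, had their 2 lowest values of the R1881 + DMSO group. SESN1 and PPM1D, with 40.6% and 41.45% GC, were lowest in replicate 4, at 198 and 43.7 CPM. PPM1D was next lowest in replicates 6 and 5, at 44.2 and 44.3 CPM. SESN1 was next lowest in replicate 6, at 200.4 CPM, but held 211 CPM in replicate 5. With the GC trend removed from every library the SD over the R1881 + DMSO libraries decreased to 0.119 for GDF15, 0.295 for BBC3 and 0.092 for SESN2, and their log2 fold changes were 0.96, 0.73 and 0.58. The SD of BTG2, with 50.5% GC, was 0.159 before and 0.156 after this step, that of SESN1 0.075 and 0.076 and that of PPM1D 0.066 and 0.070.

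**Figure D4:**
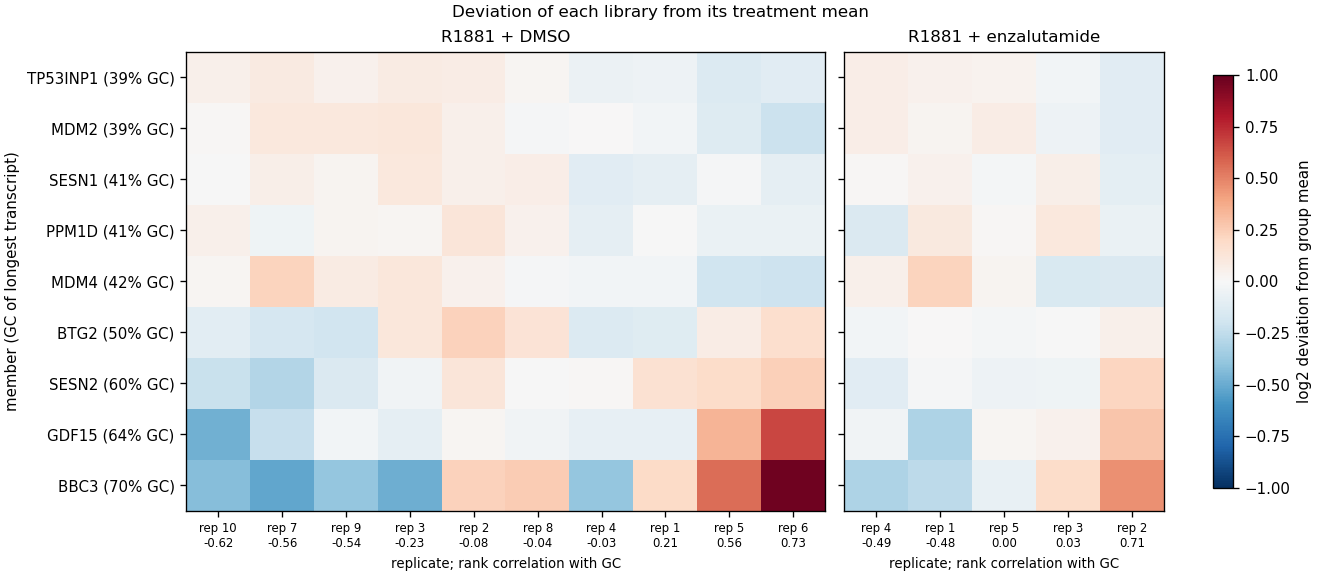
Log2 deviation of each library from its treatment mean (colour, red above and blue below) for the 9 genes, ordered from 39.35% GC (top) to 69.7% GC (bottom), with libraries ordered by how far their deviations follow GC content (Spearman's rho under each). R1881 + DMSO replicates 5 and 6 and R1881 + enzalutamide replicate 2 are red for BBC3, GDF15 and SESN2 and blue for MDM2 and TP53INP1.

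Levels between genes can be compared only per length. On the scale of median CPM per 1000 bases of the canonical transcript, SESN1 and TP53INP1 stood highest of the 9 with R1881 + DMSO, at 38.0 and 34.3. MDM2 with 17.8, BTG2 with 16.6, GDF15 with 10.9 and PPM1D with 9.78 followed, then SESN2 with 6.34 and MDM4 with 3.29, and BBC3 was lowest with 0.633. With R1881 + enzalutamide SESN1 and TP53INP1 were at 95.9 and 90.0 and BTG2 at 40.4, above MDM2 at 23.5, and PPM1D at 4.34 stood between SESN2 at 8.74 and MDM4 at 3.48. Isoforms with other lengths would change these levels.

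The genes whose profile over the 15 libraries was most like that of the strongest movers were found by the mean absolute difference of log2 values, each centred on its own mean. For TP53INP1 they were AIDA, at a mean absolute difference of 0.022, and GALNT3, at 0.031. For SESN1 they were GALNT3 again, at 0.040, and NAIP, at 0.045. PGM3 at 0.046 and UBE2J1 at 0.051 were nearest to PPM1D, and IGIP at 0.073 and TLE3 at 0.079 to BTG2. RAB17 at 0.055 and CRAT at 0.057 were nearest to SESN2, and LRP1 and HDAC5, both at 0.10, to GDF15. For BBC3 they were PHLDA3, itself a p53 target, at 0.170 and VASN at 0.1845, the largest differences named here. These profiles share the treatment and the libraries, so likeness is a description only.

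A wider list of 45 genes that p53 is known to activate, none of them among the 9, had 42 genes with values. Of these 22 rose and 9 fell with enzalutamide and 11 did not pass the test, a share of 52.4% higher against 29.8% of all genes tested and of 21.4% lower against 32.7%. The median log2 fold change of the list was 0.19. The largest rise was that of SUSD6, a membrane protein gene, from 31.7 to 36.3 CPM with R1881 + DMSO to between 88.2 and 99.7 CPM, a log2 fold change of 1.44. SPATA18, a gene of mitochondrial quality control, rose by 0.84 on this scale, the death receptor gene FAS by 0.82 and FDXR, the mitochondrial ferredoxin reductase, by 0.82. CDKN1A, the cell cycle inhibitor p21, singled out after its values had been seen, ranged from 80.4 to 93.0 CPM with R1881 + DMSO and from 109 to 130 CPM with R1881 + enzalutamide, a log2 fold change of 0.40 (SE 0.046, limma adjusted p = 1.32e-07).

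Of the 9 genes of this list that fell, the 4 with the largest decrease are given here. The proline pathway enzyme ALDH4A1 fell by 1.17 on the log2 scale. The death receptor gene TNFRSF10B ranged from 267 to 299 CPM with R1881 + DMSO and from 127 to 135 CPM with R1881 + enzalutamide, a log2 fold change of -1.11 (SE 0.031, limma adjusted p = 1.03e-17). PMAIP1, which encodes the BH3-only protein NOXA, ranged from 13.2 to 17.1 CPM and from 7.07 to 8.41 CPM, a log2 fold change of -0.88, so that it fell where BBC3, the other BH3-only gene here, rose. TNFRSF10A, the sister receptor gene of TNFRSF10B, fell by 0.35 on the log2 scale. With library totals set to 1000000 the list held 27 genes that rose and 8 that fell. At that setting 6641 of all genes tested rose and 4288 fell, in place of 5083 and 5577.

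**Figure D5:**
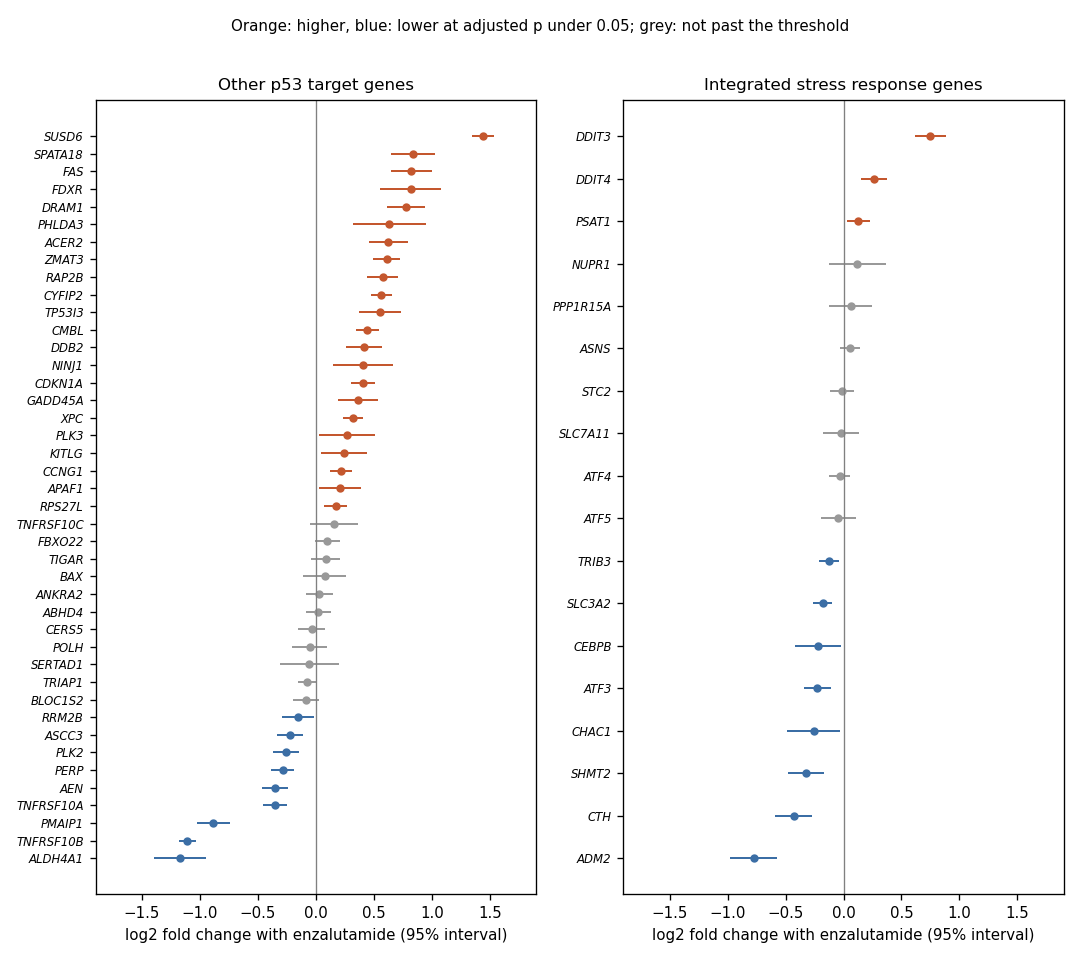
Log2 fold change with enzalutamide (x axes, points with 95% intervals) of 42 other p53 target genes (left) and 18 integrated stress response genes (right), orange where higher and blue where lower at an adjusted p under 0.05, grey otherwise. In the target list 22 genes are orange and 9 blue, and in the stress response list 3 are orange and 8 blue.

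Regulators of p53 other than MDM2, MDM4 and PPM1D were described by a list of 30 genes, all with values. With enzalutamide 8 rose and 14 fell, shares of 26.7% and 46.7% against 29.8% and 32.7% of all genes tested, so that the share that rose was near that of all genes. The median log2 fold change was -0.09. Among those that fell, HIPK2, a kinase that phosphorylates p53, ranged from 416 to 483 CPM with R1881 + DMSO and from 220 to 256 CPM with R1881 + enzalutamide, a log2 fold change of -0.91. The deubiquitinase gene USP10 fell by 0.89, KMT5A, listed under its older symbol SETD8 and encoding a methyltransferase of histone H4 and p53, by 0.84 and TRIM24, a ubiquitin ligase of p53, by 0.58 on the log2 scale. Those that rose changed less. CDKN2A, which encodes p16 and the MDM2 inhibitor ARF, had a log2 fold change of 0.33, RPL5, a ribosomal protein that binds MDM2, of 0.26 and the acetyltransferase gene CREBBP of 0.17.

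GDF15 and SESN2 are also known targets of the integrated stress response, and DDIT3 encodes CHOP, a transcription factor of that response. Of 19 genes listed for this response 18 had values, of which 3 rose, 8 fell and 7 did not pass the test. The shares were 16.7% higher and 44.4% lower, against 29.8% and 32.7% of all genes tested, and the median log2 fold change was -0.04. The list shared no gene with the 9. DDIT3 ranged from 13.0 to 17.2 CPM with R1881 + DMSO and from 22.9 to 28.3 CPM with R1881 + enzalutamide, a log2 fold change of 0.75 (SE 0.061, limma adjusted p = 9.68e-10). The mTORC1 inhibitor gene DDIT4 and PSAT1, of serine synthesis, rose by 0.26 and 0.13 on this scale. ADM2 fell by 0.78, CTH, of cysteine synthesis, by 0.43, SHMT2, of mitochondrial folate metabolism, by 0.32 and CHAC1, which degrades glutathione, by 0.26. ATF4, the central transcription factor of this response, had a log2 fold change of -0.03 (SE 0.040, limma adjusted p = 0.474). With library totals set to 1000000 the counts in this list were 4 higher and 5 lower, against 6641 higher and 4288 lower among all genes tested.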

How the data were processed

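Polyadenylated RNA of LNCaP cells was sequenced with a stranded kit as single-end reads of 50 bases. Per the methods and labels, STAR aligned them to GRCh38 and featureCounts assigned them to genes. What the authors deposited is a scaled signal for each gene, a CPM value in the methods. For annotation, strand setting, gene filter and scaling: not given in the sources used here. Groups follow the sample labels (10 R1881 + DMSO, 5 R1881 + enzalutamide), whereas the methods give these numbers the other way round. The methods call the libraries biological replicates, but no label names their cultures, so p-values measure the spread between these libraries, which may be technical. Divided by what 1 read is worth in its library, every deposited signal value (100%) gave a whole number within 0.01 reads, and libraries summed to between 985580 and 1078567. In none of the 55 pairs of libraries within a treatment did counts agree within sampling noise (lowest chi-square over its degrees of freedom 1.62).

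Tests used limma 3.58.1 in R 4.3.3 (mean-variance trend, treatment as the only term), and recovered reads were tested with edgeR 4.0.16 and DESeq2 1.42.0 as alternatives. limma and edgeR were tested on simulated data with few changed genes and no GC trend or scaling difference between treatments. That simulation does not cover the many called genes, the GC trends and the scaling of these data. Ratios within libraries were compared with exact permutation tests. GC content is that of the longest GENCODE v44 transcript, found for 80.8% of genes, and its trend was removed with a spline of 5 degrees of freedom. Positions are from GENCODE v44. The members and gene lists were chosen with earlier results of these data known, and lists are described by counts and medians, with no test. Named are all 9 members, their relatives, the 4 highest and 4 lowest called genes of each list and the 2 genes most like each member in profile. Some genes that this rule names are not reported here.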

Additional observations from a re-analysis of the deposited data

Results flagged for a closer look

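A library far from the others of its treatment was looked for in 24 groups of 5 or 10 values (the 9 genes, the 2 ratios and the recovered reads), by dividing the distance from its neighbour by the whole spread of the group. Such a library was found in 4 groups, where chance gives about 1.2. SESN2 in R1881 + enzalutamide replicate 2 was 36.3 CPM, and the next library held 30.9 CPM. The log2 ratio of SESN1 to SESN2 in the same library was 3.78, below the next at 4.12. Deviations in this library rose with GC content (Spearman's rho 0.71 across genes). The log2 ratio of MDM2 to MDM4 in R1881 + DMSO replicate 7 was 1.87, below the next at 1.98. The most reads among the R1881 + enzalutamide libraries, 25416052, were recovered from replicate 5, followed by 22329140.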

How the results depend on the processing

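Results were recomputed with pseudocounts of 0.1 and 1, other filters, other scalings, edgeR or DESeq2, a replicate block, each R1881 + DMSO series alone and each library left out in turn. The GC trend and the joint removal of the 3 libraries in which deviations rose with GC content, but not of those in which they fell, were chosen after seeing the data. Of 467 values under an alternative, 464 were judged the same. Tested values kept their direction and their side of the threshold, and counts of rises and falls together stayed within 1.5 times. Ratios of median CPM have no p-value, and on the log2 scale they differed from the fold change by less than the larger SD of the treatments. A shift in the balance of rises and falls does not enter this judgement. BBC3 lost its call against R1881 + DMSO libraries 71 to 75 alone, at a log2 fold change of 0.39, and it had no value at a mean CPM of at least 5. For the former the cause was not tested. The genes of the 9 called between the R1881 + DMSO series numbered 2 with the GC trend removed (SESN1 and BTG2), and between 1 and 2 with each library left out, the 2 (BBC3 and BTG2) without replicate 3.

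With each library left out the log2 fold change stayed between 0.36 and 0.41 for MDM2, between 0.0016 and 0.09 for MDM4, between -1.19 and -1.12 for PPM1D and between 0.58 and 0.81 for BBC3. With library totals set to 1000000, 60.8% of the called genes were higher in place of 47.7%. At that setting MDM4 was at 0.15 and came close to the threshold (limma adjusted p = 0.0553). Same-numbered libraries of the treatments did not deviate together (correlations from -0.07 to 0.07), so the replicate numbers do not pair them, and with the replicate block 8 of the 9 genes and 10043 genes in all were called. Depth limits BBC3, with as few as 12 reads in a library.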
